A study of Caenorhabditis elegans with 83 samples.

Results

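The genes described here encode the core enzymes and readers of histone H3 methylation at lysines 9, 27 and 36 in Caenorhabditis elegans, and the question was where 3 chromatin factors, namely SET-26, HCF-1 and the deacetylase HDA-1, were bound at them. The 10 genes were met-1, met-2, set-25, set-32, mes-2, mes-3, mes-4, mes-6, hpl-1 and hpl-2, out of 19973 protein-coding nuclear genes. A peak was assigned to a gene when it overlapped the gene or the 2000 bp upstream of it in WBcel235 coordinates. This gave 323 of the 201446 unique peaks in 22 peak lists, in which the same site can recur from list to list. The study profiled day 1 adults, grown for 48 h at 25 °C, by CUT&RUN, in which an antibody-directed nuclease cuts out bound chromatin fragments for sequencing. The series held 83 libraries, with 42 for the tagged factors, 32 for histone H3 and 9 for the antibody in untagged worms.

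All factor strains carried a CRISPR knock-in tag, set-26::ha, hcf-1::gfp::3xflag or hda-1::gfp::ha, and the controls carried the same tag as the mutants. The mutants carried set-26(tm2467) or hcf-1(pk924). Germline-less worms were either glp-1(e2141) animals fed OP50 bacteria or animals on glp-1 RNAi, and whole worms were either wild type on OP50 or on the L4440 empty vector. The mutants were profiled on glp-1 RNAi and on L4440, and HCF-1 in the set-26 mutant also in glp-1(e2141). Whole worms contain soma and germline together, so a site in fewer nuclei and a weaker site in all nuclei cannot be told apart. Peaks carry no expression values, so the loss of the germline was not checked on marker genes here. The 2 biological replicates of each condition were merged before peak calling. A list therefore has 1 value per site, no replicate error exists, and no difference below was tested.

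Sequencing depth and list size set what can be compared. The 22 lists held 1267 to 13422 unique peaks from 27.6 to 71.5 M factor tags. The fold given for a peak is the authors' fold enrichment at its summit over the local control, which was H3 in 16 lists and the antibody background in 6. A value called a start summit below is the summit with the highest −log10 q within 500 bp of the annotated gene start. A site that is not listed did not pass the authors' q threshold of 0.01, which does not show that the factor was absent.

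As background, MET-2 adds the first methyl groups to H3K9 and SET-25 brings H3K9 to its trimethylated state, which is bound by the HP1 proteins HPL-1 and HPL-2 in heterochromatin. SET-32 is a further H3K9 methyltransferase known from heritable small RNA silencing. MES-2, MES-3 and MES-6 form the worm Polycomb complex PRC2, in which MES-2 is the H3K27 methyltransferase. MES-4 maintains H3K36 methylation on germline-expressed genes, and MET-1 is the Set2-type H3K36 methyltransferase that acts with transcription. SET-26 binds H3K4me3, a mark of active promoters, and HCF-1 is the worm homologue of host cell factor. HDA-1 removes acetyl groups from histones.

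The DNA at or beside the summits is shown for the genes on which the comparisons turn and whose sequence could be printed, each as 150 bases read 5′ to 3′ along the gene, with CG dinucleotides in capitals. The stretch of set-25 is that just before its start (chrIII:13293091-13293240, minus strand). On glp-1 RNAi it holds the HDA-1 summit, 3 bp before the start, whereas the SET-26 and HCF-1 summits lay 14 and 5 bp inside the gene. Those of mes-2 (chrII:14383649-14383798, plus strand) and mes-6 (chrIV:8510748-8510897, plus strand) surround the HCF-1 summits on glp-1 RNAi. HCF-1 kept an overlapping peak at mes-6 but not at mes-2 in germline-less set-26 mutants, and the mes-6 summit shown lies between mes-6 and its divergent neighbour tag-77. The mutant peaks at mes-6 (chrIV:8511007-8511250 on glp-1 RNAi and chrIV:8510998-8511282 in glp-1(e2141)) lay outside the printed stretch, nearer the mes-6 start. The stretch of mes-4 (chrV:13437741-13437890, minus strand) surrounds the HCF-1 summit of whole worms, and that of hpl-1 (chrX:13245184-13245333, plus strand) surrounds an HDA-1 summit. All are RefSeq WBcel235 sequence and none overlapped an annotated UTR.
set-25: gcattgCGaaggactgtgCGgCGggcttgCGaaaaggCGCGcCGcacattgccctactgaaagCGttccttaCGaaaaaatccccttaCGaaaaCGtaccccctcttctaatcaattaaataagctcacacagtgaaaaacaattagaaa
mes-2: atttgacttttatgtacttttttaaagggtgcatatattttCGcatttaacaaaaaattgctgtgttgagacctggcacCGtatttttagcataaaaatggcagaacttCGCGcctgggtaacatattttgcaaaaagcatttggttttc
mes-6: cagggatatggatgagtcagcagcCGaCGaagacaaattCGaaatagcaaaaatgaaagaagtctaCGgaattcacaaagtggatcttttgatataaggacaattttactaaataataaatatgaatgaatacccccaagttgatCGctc
mes-4: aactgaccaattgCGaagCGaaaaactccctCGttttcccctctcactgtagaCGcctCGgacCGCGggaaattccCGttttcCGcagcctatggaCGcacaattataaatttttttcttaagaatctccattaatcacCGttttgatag
hpl-1: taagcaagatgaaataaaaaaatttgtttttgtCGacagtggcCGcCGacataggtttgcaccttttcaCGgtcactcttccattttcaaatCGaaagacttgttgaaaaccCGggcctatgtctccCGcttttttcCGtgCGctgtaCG
The stretches differed in composition. The set-25, mes-4 and hpl-1 stretches held 11, 11 and 10 CG dinucleotides, and the mes-2 and mes-6 stretches held 4 and 5. Neither TGATAA, the core of GATA factor sites, nor GAGAGA was present in any of the 5 stretches on either strand.

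**Figure D1:**
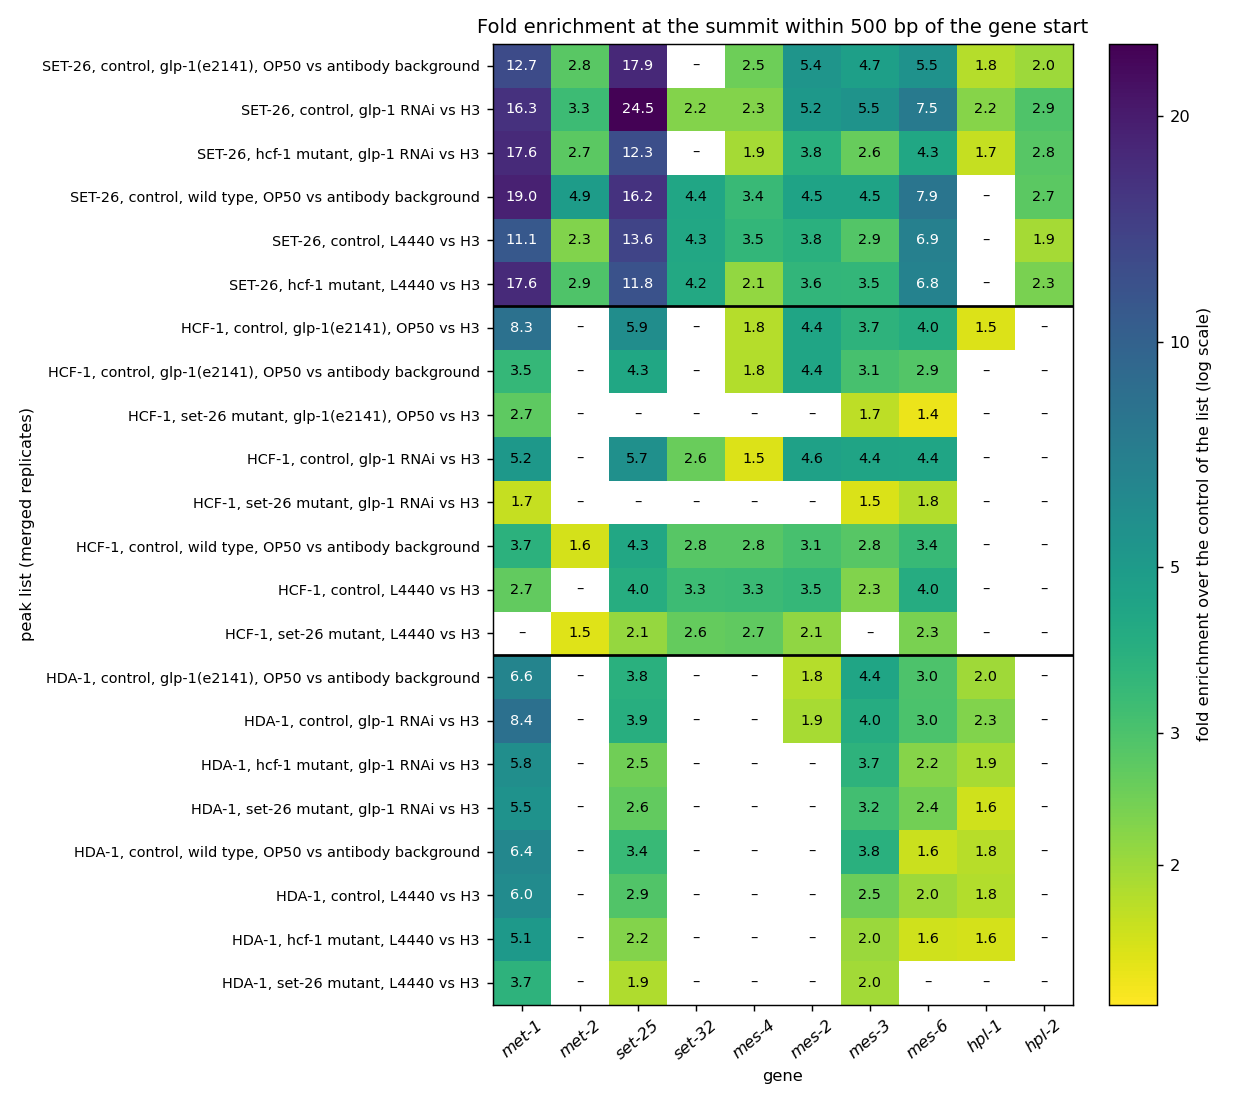
Fold enrichment (colour, log scale, and printed number) at the start summit of each gene (columns) in each of the 22 peak lists (rows), each called on merged replicates. A dash means that no summit was listed within 500 bp of the start. SET-26 at met-1 and set-25 stood between 11.1- and 24.5-fold in all 6 SET-26 lists, and HCF-1 and HDA-1 were listed at fewer of the genes.

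SET-26 was listed at nearly all of these genes, and met-1 and set-25 carried by far its highest start summits. It had a peak over 10 of the 10 genes on glp-1 RNAi, beside 42.6% of all genes, and over 9 of the 10 on L4440 (37.8% of genes), in the glp-1(e2141) list (42.7%) and in the wild-type list (40.5%). The members' windows were longer than usual, with a median of 6489 bp against 4027 bp over all genes, so a peak over them was more likely for that reason alone. At met-1, the SET-26 start summit was 16.3-fold on glp-1 RNAi, 11.1-fold on L4440, 12.7-fold in glp-1(e2141) animals and 19.0-fold in wild type. The values at set-25 were 24.5-, 13.6-, 17.9- and 16.2-fold in the same order. No other start summit of the group passed 7.92-fold, the value of mes-6 in wild type, in any SET-26 list.

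The H3K27 genes had SET-26 summits below those of met-1 and set-25, but their peaks ranked high in the whole lists. By −log10 q, the peaks of mes-6, mes-3 and mes-2 were at the 89.7th, 85.7th and 83.9th percentile on glp-1 RNAi. On L4440 they were at the 93.0th, 77.1th and 82.5th. The summit of mes-6, the WD-repeat subunit of PRC2, was 7.45-fold on glp-1 RNAi and 6.87-fold on L4440. The catalytic subunit gene mes-2 stood at 5.18- and 3.81-fold and mes-3 at 5.49- and 2.87-fold in the same 2 lists. The mes-6 summit on glp-1 RNAi lay 467 bp upstream of the mes-6 start and only 269 bp from the start of tag-77, the divergent neighbour, so it could be assigned to either gene. In wild type the mes-6 summit was 38 bp from the mes-6 start.

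SET-26 covered some of the genes along most of their length. On glp-1 RNAi, SET-26 peaks covered 93.2% of the mes-6 window, 89.9% of that of met-2 and 68.3% of that of hpl-2, where the median over all genes with a peak was 31.5%. At hpl-1, mes-4 and mes-3 they covered 9.03%, 10.99% and 22.6%, mostly a single site at the start. The broad signal was low at met-2 and hpl-2, whose start summits were 3.28- and 2.92-fold. Both genes begin close behind a gene on the same strand, met-2 127 bp after lmbr-1 and hpl-2 93 bp after rnf-113. The hpl-2 summit lay 466 bp inside the gene. The gap was shorter still at met-1, which begins 57 bp after C43E11.12. There 73.6% of the window was covered and the start summit was 16.3-fold. Among these 3 genes a close upstream neighbour stood beside both low and high start summits, and a relation between gap and signal was not tested.

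HCF-1 was listed at the starts of 7 of the 10 genes on glp-1 RNAi (28.0% of all genes), and not at those of met-2, hpl-1 and hpl-2. Counting whole windows, 7 of 10 genes had an HCF-1 peak on glp-1 RNAi (42.8% of all genes), 8 of 10 on L4440 (33.4%) and 9 of 10 in wild type (35.3%). In glp-1(e2141) the count was 8 of 10 over H3 (49% of all genes) and 7 of 10 over the antibody background (41.7%). The highest start summits on glp-1 RNAi were set-25 at 5.69-fold, met-1 at 5.18-fold, mes-2 at 4.59-fold, mes-3 at 4.42-fold and mes-6 at 4.38-fold. The summits of set-32 (2.55-fold) and mes-4 (1.51-fold) were lower. The choice of control moved met-1 most, since in glp-1(e2141) the same HCF-1 signal there was 8.28-fold over H3 and 3.50-fold over the antibody background. At mes-2 both controls gave nearly the same value, 4.41- and 4.39-fold.

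HDA-1 was strongest at met-1. Its start summit there was 8.41-fold on glp-1 RNAi, 6.02-fold on L4440, 6.58-fold in glp-1(e2141) and 6.37-fold in wild type, at the 97.4th percentile of all HDA-1 peaks by −log10 q on glp-1 RNAi. Over whole windows, HDA-1 peaks were listed at 7 of 10 genes on glp-1 RNAi (45% of all genes), 6 of 10 on L4440 (34%), 6 of 10 in glp-1(e2141) (45.6%) and 5 of 10 in wild type (34.6%). On glp-1 RNAi the summits of mes-3, set-25 and mes-6 were 4.02-, 3.92- and 3.01-fold, and those of hpl-1 and mes-2 were 2.28- and 1.92-fold. No HDA-1 peak over set-32 or hpl-2 was listed in any of the 8 HDA-1 lists. The HDA-1 peak of control worms at mes-4 was listed in the RNAi lists alone and had its summit 762 bp upstream on glp-1 RNAi and 788 bp upstream on L4440, away from the start.

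Where several factors were listed at a start on glp-1 RNAi, their summits lay within 142 bp of each other. On glp-1 RNAi the 3 summits spanned 17 bp at set-25, 44 bp at met-1, 21 bp at mes-2 and 6 bp at mes-6. At mes-3 the 3 summits spanned 142 bp. At hpl-1, listed for SET-26 and HDA-1 in this setting, the 2 summits were 88 bp apart.

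HCF-1 in the set-26 mutant was listed at the same 3 genes in both germline-less settings, met-1, mes-3 and mes-6. With a −log10 q of at least 5 required, 2 of the 10 genes remained in each setting, since mes-3 had 3.28 on glp-1 RNAi and mes-6 had 4.69 in glp-1(e2141). On glp-1 RNAi, 3 of the 10 HCF-1 peaks over the group were overlapped by a peak in the set-26 mutant (95% Clopper-Pearson interval 6.67% to 65.2%, counting error only), beside 8.87% of all HCF-1 peaks. The share was 3 of 11 in glp-1(e2141) (6.02% to 61.0%), beside 28.3%. With at least 50% of the control peak covered, the counts were 0 of 10 and 0 of 11. Of the 5 member peaks in the top quintile of the list by −log10 q, 3 were overlapped in each setting, where 36.9% and 75.9% of all peaks in that quintile were. The counts are small and the intervals wide, and both intervals include the background. Peaks over 3 of the 10 genes were listed in each germline-less mutant list, beside 7.1% of all genes on glp-1 RNAi and 25% in glp-1(e2141).

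The peaks that were kept were lower. At met-1, HCF-1 was 5.18-fold in controls and 1.69-fold in the set-26 mutant on glp-1 RNAi, and 8.28- and 2.71-fold in glp-1(e2141). At mes-3 the values were 4.42 and 1.54 on glp-1 RNAi and 3.71 and 1.74 in glp-1(e2141). At mes-6 they were 4.38 and 1.83, and 4.03 and 1.42. The summits of mes-6 and mes-3 also stood elsewhere in the mutant on glp-1 RNAi, 146 and 34 bp upstream of the starts, against 461 and 304 bp in controls. The mutant to control ratios of the 3 genes on glp-1 RNAi were 0.33 to 0.42, at the 57.4th to 80.7th percentile. The median was 0.30 over the 648 genes with a start summit in both lists, out of 5586 with one in controls. Genes whose mutant summit was not listed are therefore not in that median. The mutant lists had more factor tags than the control lists, 35.2 M against 27.6 M on glp-1 RNAi and 69.0 M against 55.9 M in glp-1(e2141).

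The set-25 and mes-2 summits were as high in controls as those of mes-3 and mes-6 and were not listed in the germline-less mutants. That of met-1 was higher than both in glp-1(e2141), at 8.28-fold. HCF-1 at set-25 was 5.69-fold on glp-1 RNAi and 5.90-fold in glp-1(e2141), higher than at mes-3 or mes-6 in both settings, and no mutant peak overlapped it in either. HCF-1 at mes-2 was 4.59- and 4.41-fold and likewise had no overlapping mutant peak. Among these 5 genes, all with a control peak in the top quintile, the control fold did not separate those that kept a peak. No member peak below that quintile had an overlapping mutant peak in either germline-less setting. A relation between control strength and the kept peaks was not tested.

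In whole worms the outcome differed from gene to gene. On L4440, 8 of 12 member peaks were overlapped by a peak of the set-26 mutant (95% interval 34.9% to 90.1%), beside 44% of all HCF-1 peaks, and 7 of 10 genes had a peak in the mutant list (23.1% of all genes). HCF-1 at set-25 was 3.96-fold in controls and 2.07-fold in the mutant, and at mes-2 it was 3.48- and 2.13-fold. The mes-4 values were 3.31- and 2.67-fold and those of set-32 were 3.3- and 2.62-fold. Their ratios of 0.81 and 0.80 were at the 89.9th and 88.6th percentile of the 2764 genes with both summits, whose median was 0.63. At mes-3, which kept a peak in both germline-less settings, the 2.28-fold whole-worm peak was not overlapped by any mutant peak. At met-1 the mutant peak was 2.16-fold against 2.65-fold in controls, a ratio of 0.81, and its summit lay 501 bp inside the gene, just past the limit of 500 bp for a start summit.

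**Figure D2:**
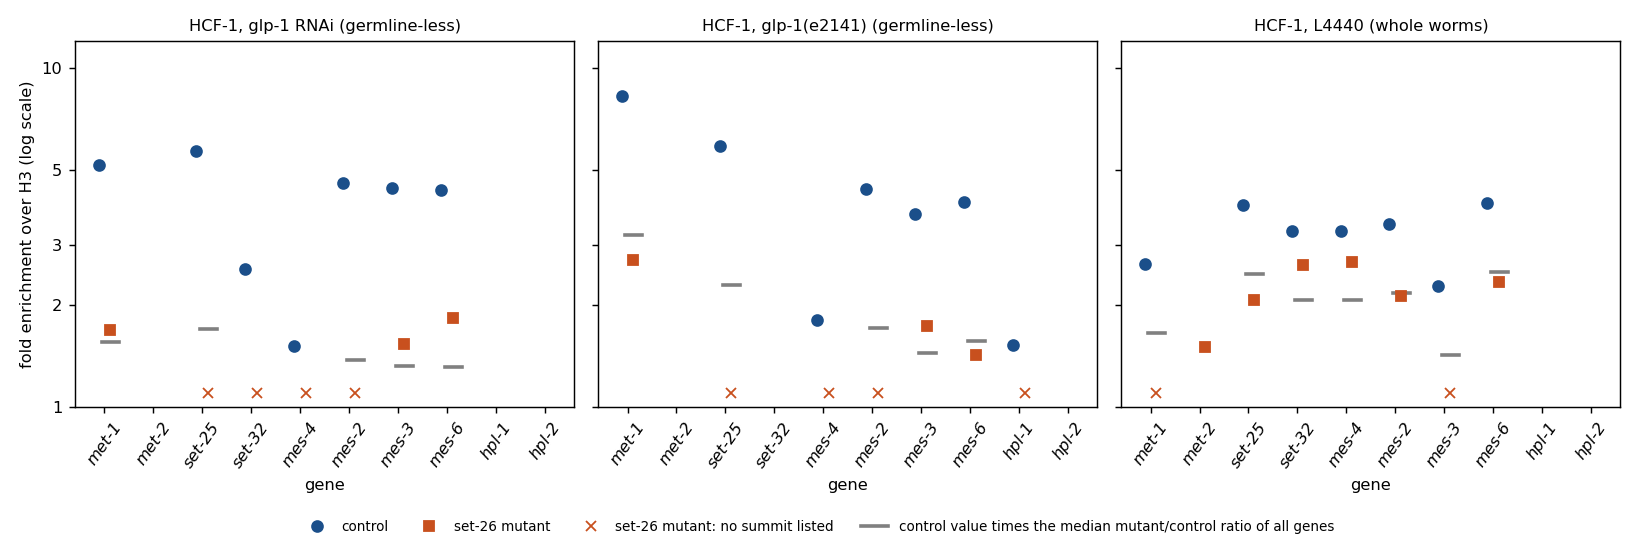
HCF-1 fold enrichment over H3 at the start summit of each gene (log scale) in control worms (circles) and the set-26 mutant (squares), with a cross at the foot where no mutant summit was listed. Grey bars show the control value times the median mutant to control ratio over all genes with both summits, which was 0.30, 0.39 and 0.63 from left to right. Bars below 1-fold are outside the axis, and the cross of met-1 on L4440 stands for a mutant summit 501 bp from the start.

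SET-26 in the hcf-1 mutant stayed listed at nearly all of the genes. On glp-1 RNAi, 28 of 38 member peaks were overlapped by a mutant peak (95% interval 56.9% to 86.6%), beside 67.4% of all SET-26 peaks, and 9 of 10 genes had a peak in the mutant (39.2% of all genes). On L4440 the share was 36 of 37 (85.8% to 99.9%), beside 83% of all peaks, and again 9 of 10 genes had a mutant peak (38.7% of all genes). The 10 peaks without an overlap on glp-1 RNAi were at most 2.25-fold. They included both peaks of set-32, at 1.35- and 2.25-fold, so that set-32 had no SET-26 peak in that mutant list. The folds were lower over the whole glp-1 RNAi list, with a median mutant to control ratio of 0.62 over 5196 genes, against 0.95 over 5150 genes on L4440.

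At met-1, SET-26 was higher in the hcf-1 mutant list than in its matched control list in both settings. The start summit was 11.1-fold in controls and 17.6-fold in the mutant on L4440, and 16.3- and 17.6-fold on glp-1 RNAi. The ratios of 1.58 and 1.08 were at the 97.9th percentile of all 5150 genes on L4440 and at the 96.6th of all 5196 on glp-1 RNAi. The ratio of 1.58 on L4440 was the highest of the 574 genes whose control summit was at least 10-fold and which had both summits. The ratio of 1.08 on glp-1 RNAi was also the highest of such genes, here 1181, of which 6 had a ratio above 1. The medians of these strong genes were 0.86 and 0.53. The signal itself, as pileup per M tags at the scaled depth, was 24.9 and 39.5 in controls and mutants on L4440, and 44.5 and 47.0 on glp-1 RNAi. Both mutant folds lay within the range of the control lists, which reached 19.0-fold in wild type over antibody background. The pileup per M tags of controls was 42.8 in wild type and 48.6 in glp-1(e2141) on OP50, so the L4440 control was the lowest. Each value comes from 1 merged list, and the limit of 10-fold was chosen after the values were seen.

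The ratios of the other genes lay on both sides of the medians of their lists. On L4440, met-2 had a ratio of 1.29 (91.5th percentile), mes-3 of 1.23 (88.7th) and hpl-2 of 1.21 (86.8th), and on glp-1 RNAi hpl-2 had a ratio of 0.96 (92.6th). SET-26 at mes-4 was 3.54-fold in controls and 2.11-fold in the mutant on L4440, a ratio of 0.60 at the 1.94th percentile of all genes with both summits. On glp-1 RNAi the mes-4 ratio was 0.86, at the 86.0th percentile, so the low rank was seen in whole worms only. The values of mes-6 on L4440 were 6.87 and 6.76, those of mes-2 were 3.81 and 3.56, and those of mes-3 were 2.87 and 3.55. On glp-1 RNAi the mes-3 values were 5.49 and 2.60 and those of mes-6 were 7.45 and 4.32. The 2 mes-6 values come from different places, since the control summit lay 467 bp upstream and the mutant summit 38 bp inside the gene.

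**Figure D3:**
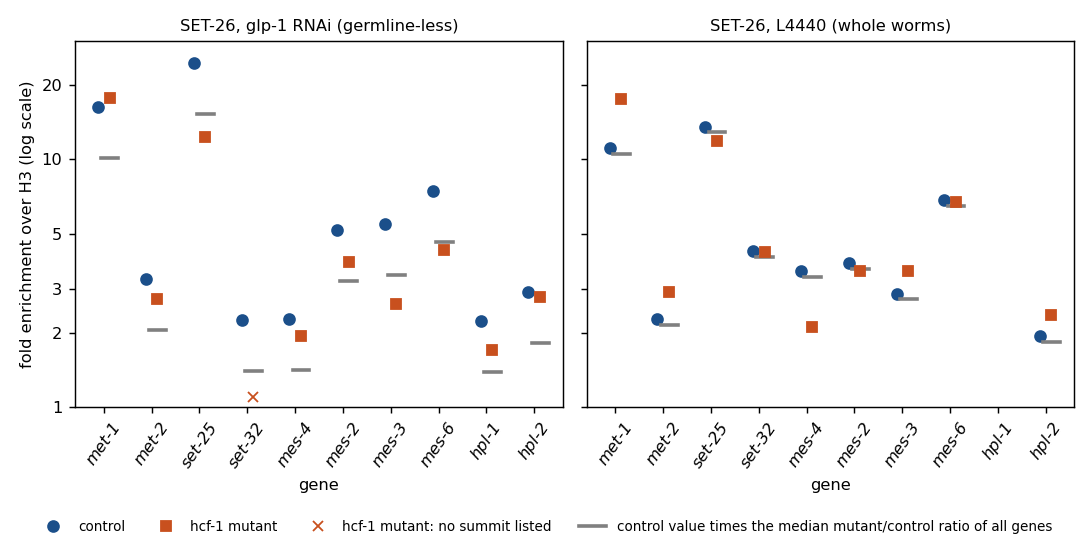
SET-26 fold enrichment over H3 at the start summit of each gene (log scale) in control worms (circles) and the hcf-1 mutant (squares), with grey bars at the control value times the median ratio over all genes (0.62 and 0.95). The met-1 square stands above the circle in both settings, at 17.6-fold.

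At set-25 the strongest overlapping SET-26 peak belonged to a neighbour. Its peak with the highest −log10 q on glp-1 RNAi was 46.2-fold (chrIII:13294568-13298298), but the summit lay 3497 bp upstream of the set-25 start and 266 bp before the start of npp-18, a nuclear pore gene. Only its flank entered the set-25 window. In the hcf-1 mutant the peak was shorter and ended outside that window, with a summit of 15.8-fold at the same place (chrIII:13296057-13297870), and small peaks of 1.42- to 1.52-fold stood where the flank had been. On L4440 the values at the npp-18 start were 24.9-fold in controls and 17.7-fold in the mutant. Reading the window alone would have shown a lost strong peak at set-25 where the site at its own start was listed, at 12.3-fold on glp-1 RNAi and 11.8-fold on L4440.

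**Figure D4:**
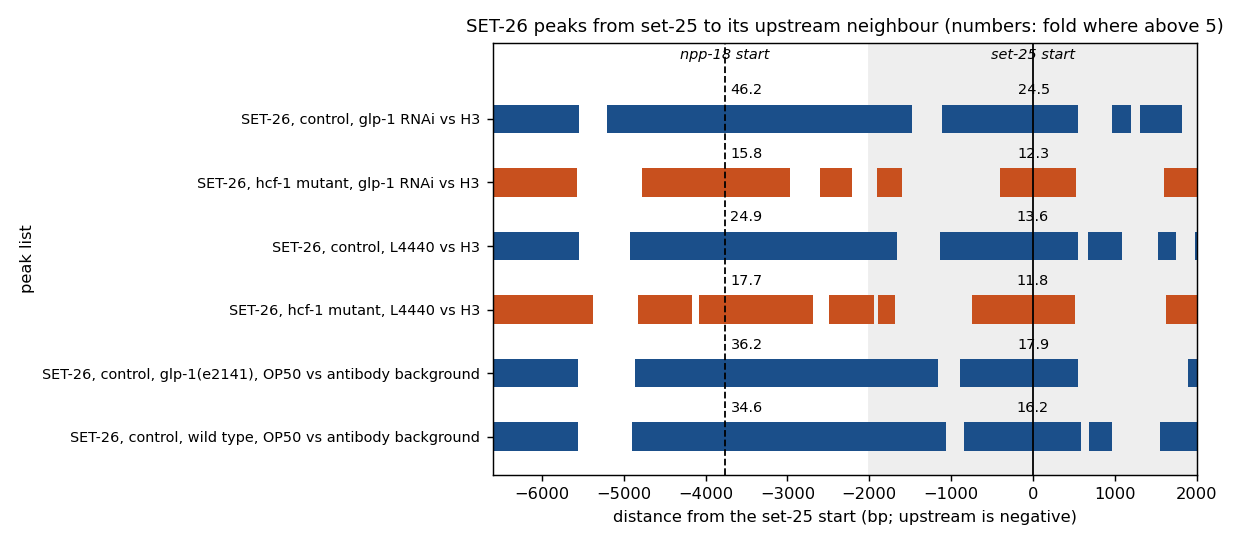
SET-26 peaks (bars) in 6 lists by distance in bp from the set-25 start, with upstream negative, the assigned window shaded, and the starts of set-25 and npp-18 marked. Numbers are folds above 5. The upstream peak has its summit 258 to 269 bp before the npp-18 start in every list and reaches the shaded window as a wide flank in the control lists.

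HDA-1 at met-1, set-25 and mes-3 was listed in all mutant lists. These comparisons share their control samples, so the mutants are given side by side. On glp-1 RNAi, 5 of 8 HDA-1 member peaks were overlapped in the set-26 mutant, beside 63.7% of all peaks, and 5 of 8 in the hcf-1 mutant, beside 70.4%. On L4440 the counts were 3 of 6 in the set-26 mutant, beside 39.3%, and 5 of 6 in the hcf-1 mutant, beside 77.8%. Genes with an HDA-1 peak numbered 6 of 10 in the set-26 mutant (34.6% of all genes) and 5 of 10 in the hcf-1 mutant (38.4%) on glp-1 RNAi. On L4440 they numbered 3 of 10 (16.2%) and 6 of 10 (31.1%).

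At met-1, HDA-1 was 8.41-fold in controls, 5.54-fold in the set-26 mutant and 5.82-fold in the hcf-1 mutant on glp-1 RNAi. On L4440 the 3 values were 6.02, 3.71 and 5.11. The ratios in the hcf-1 mutant, 0.69 and 0.85, were at the 22.5th and 34.5th percentile of all genes, and the pileup per M tags on L4440 was 13.5 in controls and 13.3 in that mutant. The set-25 values were 3.92, 2.64 and 2.48 on glp-1 RNAi and 2.90, 1.85 and 2.25 on L4440. The ratio at set-25 in the hcf-1 mutant was at the 12.8th percentile of all genes on glp-1 RNAi and at the 18.1th on L4440, where the medians were 0.82 and 0.91. At hpl-1 and mes-6 on L4440, HDA-1 was listed in controls (1.83- and 2.00-fold) and in the hcf-1 mutant (1.57- and 1.60-fold), and not in the set-26 mutant. The 1.92-fold HDA-1 site of mes-2 on glp-1 RNAi was in neither mutant list.

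Lists with and without a germline shared most sites of the group. For SET-26, 30 of 32 germline-less peaks were overlapped by a whole-worm peak on OP50, beside 76.4% of all peaks, and 28 of 38 in the RNAi lists, beside 64.9%. In the other direction, 23 of 30 wild-type peaks (67.2% of all) and 35 of 37 L4440 peaks (88.1% of all) had a germline-less counterpart. For HCF-1, the germline-less counts were 7 of 9 on OP50 (54.1% of all peaks) and 8 of 10 in the RNAi lists (53.9%), and the whole-worm counts were 7 of 16 (63.7%) and 9 of 12 (80.7%). For HDA-1, the germline-less counts were 5 of 8 (59.6%) and 6 of 8 (58.5%), and all 6 whole-worm peaks in each setting had a counterpart, beside 93.9% and 94.6%. The HCF-1 peaks of wild type were the only set under 50%, at 43.8% (95% interval 19.8% to 70.1%), and this interval includes the background.

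SET-26 and HCF-1 were higher with a germline at mes-4 and set-32 wherever both values were listed. SET-26 at hpl-1 was listed only in germline-less worms. Other genes also lay far from the medians in some lists. SET-26 at met-2 on OP50 had a whole-worm to germline-less ratio of 1.76 (91.8th percentile). HCF-1 at met-1 and mes-3 in the RNAi lists had 0.51 and 0.52 (percentiles 6.33 and 6.69). HDA-1 at mes-2 has no ratio, since it was listed only without a germline, at 1.92-fold on glp-1 RNAi and 1.80-fold in glp-1(e2141). Of all germline-less HDA-1 peaks, 58.5% in the RNAi lists and 59.6% on OP50 had a whole-worm counterpart. HCF-1 at mes-4 was 3.31-fold on L4440 and 1.51-fold on glp-1 RNAi, and 2.81-fold in wild type and 1.84-fold in glp-1(e2141). The whole-worm to germline-less ratios of 2.19 and 1.53 were at the 99.8th and 96.4th percentile of all genes with both summits, whose medians were 0.82 and 0.84. SET-26 at mes-4 was 3.54-fold on L4440 and 2.26-fold on glp-1 RNAi (96.6th percentile of the ratio). It was 3.37-fold in wild type and 2.49-fold in glp-1(e2141) (76.9th percentile). All 4 contrasts of HCF-1 and SET-26 had the same direction. The HDA-1 peak upstream of mes-4 was lower with a germline, at 1.72-fold on L4440 and 2.18-fold on glp-1 RNAi. HDA-1 start summits were lower on L4440 over the whole list as well, with a median ratio of 0.73 over all genes with both summits.

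At set-32, SET-26 was 4.27-fold on L4440 and 4.36-fold in wild type. It was 2.25-fold on glp-1 RNAi and was not listed in glp-1(e2141). HCF-1 at the same site was 3.3-, 2.81- and 2.55-fold in the first 3 of these settings and was not listed in glp-1(e2141) either. The SET-26 ratio of 1.90 in the RNAi lists was at the 97.7th percentile of all genes. The summit lay 354 to 376 bp upstream of set-32 in these lists but 132 to 154 bp from the start of mina-1, the divergent neighbour, so the 2 genes share the site and it cannot be assigned to one of them. A wider SET-26 peak over the set-32 window, of 6.12-fold on L4440 and 8.68-fold in wild type, had its summit over 3 kb upstream, nearest to tspo-1.

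At the X-linked gene hpl-1, which encodes an HP1 protein, SET-26 was low and was listed in germline-less worms only. SET-26 at hpl-1 was 2.23-fold on glp-1 RNAi, 1.81-fold in glp-1(e2141) and 1.69-fold in the hcf-1 mutant on glp-1 RNAi, and was in none of the 3 whole-worm lists. Of all germline-less SET-26 peaks in control worms, 64.9% in the RNAi lists and 76.4% on OP50 had a whole-worm counterpart. A low site can therefore drop out without being absent. HDA-1 at hpl-1 was listed in both settings, at 2.28- and 1.83-fold in the RNAi lists and 1.97- and 1.79-fold on OP50. At met-1, SET-26 was 12.7-fold in glp-1(e2141) and 19.0-fold in wild type, and 16.3-fold on glp-1 RNAi and 11.1-fold on L4440. These whole-worm to germline-less ratios were at the 84.1th and 46.7th percentile of all genes. The OP50 and RNAi lists differ in the control sample, the bacteria and the way the germline was removed, which cannot be told apart.

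**Figure D5:**
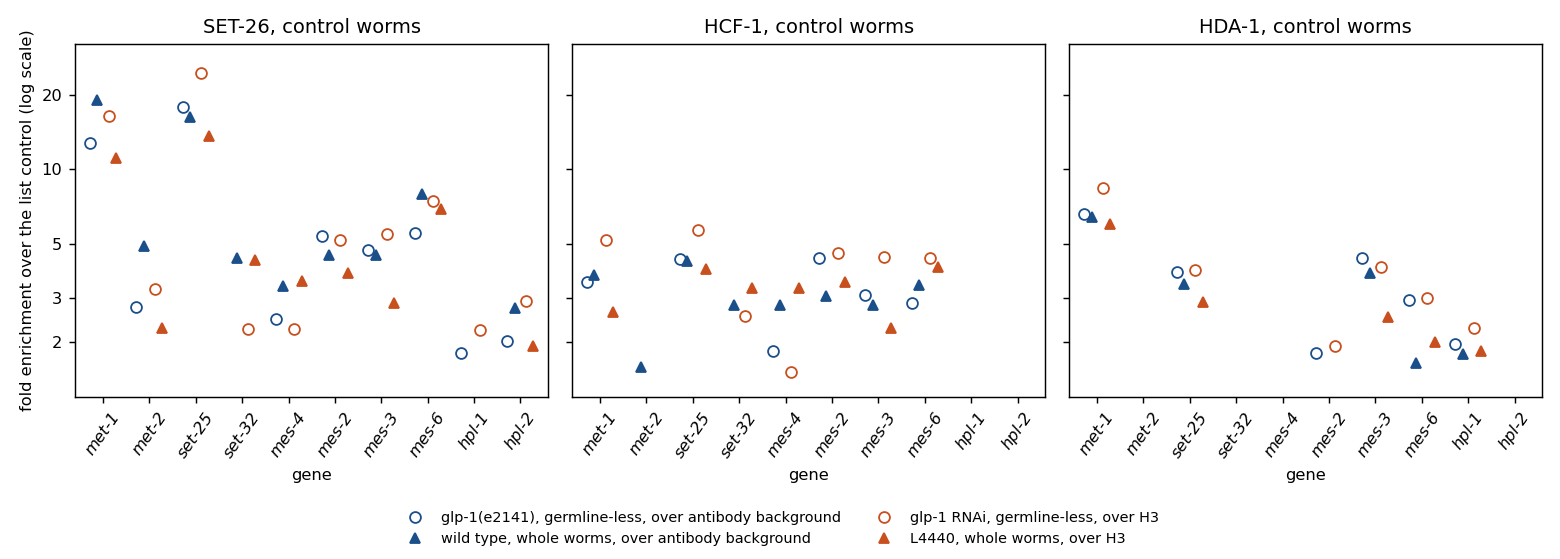
Fold enrichment at the start summit (log scale) in control worms without a germline (open circles) and in whole worms (triangles), for the lists over antibody background (blue) and over H3 (orange). For mes-4 and set-32 the SET-26 and HCF-1 triangles lie above the circles where both are listed, and SET-26 at hpl-1 has circles only.

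Other genes of these marks were counted in the same lists. The 22 genes took in MET-2 partners, readers, demethylases and other SET-domain genes. On glp-1 RNAi, 17 of the 22 had a SET-26 peak, 14 an HCF-1 peak and 16 an HDA-1 peak, beside the shares of all genes given above (42.6%, 42.8% and 45%). The highest SET-26 peaks were those of cec-3, a chromodomain reader gene, at 44.2-fold, cec-4, the gene of the nuclear envelope anchor for methylated H3K9, at 30.1-fold, and jmjd-1.2, a demethylase gene, at 29.9-fold. The cec-4 peak had its summit outside the window, and at the cec-4 start SET-26 was 8.41-fold. For HCF-1 the highest were jmjd-1.2 at 13.3-fold, cec-3 at 11.8-fold and cec-1 at 8.11-fold. For HDA-1 they were lin-59, a SET-domain gene, at 19.3-fold, lin-13 at 14.8-fold and cec-1 at 12.3-fold, and these 3 summits were not at the annotated starts, where HDA-1 was 3.2-fold at lin-59, 2.65-fold at cec-1 and not listed at lin-13. In the set-26 mutant, 7 of 24 HCF-1 peaks of this list were overlapped on glp-1 RNAi and 16 of 26 on L4440, beside 8.87% and 44% of all peaks.

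Sequence composition around the start summits was examined in 300 bp windows. On glp-1 RNAi the 10 SET-26 windows had a median GC content of 38.8% and 13.5 CG dinucleotides, beside 36.3% and 10 over all 12555 SET-26 peaks. The 7 HCF-1 windows had 36.7% and 15, beside 36% and 10, and the 6 HDA-1 windows had 39.8% and 15, beside 38% and 10. The HCF-1 windows of met-1 and set-25 were the richest, at 51.3% and 49% GC, and those of set-32 and mes-3 were the poorest, at 30% and 30.3%. TGATAA or its reverse complement was in 1 of the 7 HCF-1 windows, that of mes-2, beside 33.7% of all HCF-1 peaks. GAGAGA was in 1 of 7, that of met-1, beside 34.8%. The SET-26 windows held TGATAA in 2 of 10 and GAGAGA in 3 of 10, beside 28.6% and 33.4% of all SET-26 peaks. The HDA-1 windows held them in 1 of 6 and 2 of 6, beside 37.4% and 40.4%. The SET-26 and HDA-1 windows of hpl-1 held GAGAGA, which the shorter printed stretch lacks.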

How the data were processed

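Peak lists were taken as the authors made them. Per the study's methods and the submitters' processing notes, reads were trimmed with Trim Galore 0.6.5, aligned with Bowtie2 2.4.3 to ce11/WBcel235, the 2 biological replicates merged, and peaks called with MACS2 2.1.4 at a q of 0.01, keeping duplicates. Per the file headers, MACS2 scaled the larger library to the smaller and used 200 bp fragments. The deposited values were the pileup signal at each summit, the fold enrichment as a linear ratio over the control, and −log10 p and q as the authors' caller gave them. Larger libraries list weaker sites, and the fold depends on the control.

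From these, entries with the same start and end were joined to unique peaks and overlapped with Ensembl 115 genes (Python 3.11.15, pandas 2.3.3, numpy 2.4.6), mitochondrial genes left out. Overlap meant at least 1 bp, and control and mutant peaks were matched over the whole genome. All 10 genes are named. In each list a gene is represented by its peak with the highest −log10 q, and other genes are named only as the nearest start to a member peak or from the fixed list of 22. The start summit within 500 bp was added after the data were seen. The genes and lists were chosen with earlier results of these data known. Exact Clopper-Pearson intervals (95%) came from scipy 1.17.1. They cover counting error only, and neighbouring peaks of a gene are not independent. The overlap search was tested on simulated data. Narrow-peak files that repeat the same lists were not used. For HDA-1 in the set-26 mutant the allele is spelled in different ways in the labels, and the titles were followed. Alternatives were a half-covered peak, a −log10 q of at least 5, a promoter window from 2000 bp upstream to 500 bp downstream, a summit inside the window, and the antibody background as control.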

Additional observations from a re-analysis of the deposited data

How the results depend on the processing

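Of 149 values recomputed under an alternative, 144 stayed within 1.5 times the count or within the 95% interval of the reported share. When a peak counted as overlapped only if at least 50% of it was covered, HCF-1 in the set-26 mutant kept 0% of member peaks on glp-1 RNAi and 0% in glp-1(e2141), because the mutant peaks at met-1, mes-3 and mes-6 were much shorter than those of controls. With the promoter window, SET-26 in the hcf-1 mutant on L4440 went to 100% (17 of 17) and the germline-less SET-26 peaks of the RNAi lists overlapped in whole worms to 94.1% (16 of 17). With a −log10 q of at least 5 in both lists, germline-less HCF-1 peaks of the RNAi lists overlapped in whole worms went to 100% (6 of 6). The number of genes with a peak stayed within 1.5 times in all 22 lists under the 4 alternatives run for it, including the added start summit. No paired analysis was possible because every list was called on merged replicates, and for the same reason no replicate could be left out. Sites not listed in a mutant may lie below what its depth could call.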
